A study of Mus musculus with 69 samples.

Results

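The difference between the IL-4 response of NOD and that of C57 bone marrow-derived macrophages (BMDMs) was measured by RNA-seq. For each gene, the change from basal to 24 hours of IL-4 in NOD/ShiLtJ (NOD) BMDMs was set against the same change in C57BL/6J (C57) BMDMs. The comparison uses 12 of the 69 samples of the study, 3 libraries in each of 4 groups: C57 basal, C57 with IL-4, NOD basal and NOD with IL-4. In all 4 groups, marrow of female mice of a wild-type inbred strain was grown into macrophages with M-CSF, the growth factor of this lineage, and poly(A) RNA was sequenced. Treated cells received mouse recombinant IL-4 at 20 ng/ml for 24 hours, and basal cells were left untreated. BALB/cJ, PWK/PhJ and SPRET/EiJ BMDMs (6, 5 and 6 libraries) are used only to place the NOD and C57 responses. Further sets of BMDMs, basal and with 24 hours of IL-4 at 2 libraries per group, enter at the end: a separate C57 time course, Egr2fl/fl with LyzM-Cre Egr2fl/fl cells (floxed Egr2 without and with Cre from the myeloid LyzM locus), and the F1 of C57 and NOD. Levels are TPM values, a length-corrected share of each library, and a response is a difference of means on the log2(TPM + 1) scale, on which 1 unit is 2-fold for well-expressed genes and less for genes near 1 TPM.

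IL-4 binds a receptor that contains IL-4Rα and activates the transcription factor STAT6, which drives genes of alternative macrophage activation such as arginase, lectins and several CC chemokines. EGR2, PPARγ and other factors are induced on the way and extend the response, while SOCS proteins and CISH restrain cytokine signalling. IL-4 also lowers many inflammatory and interferon-stimulated genes in macrophages.

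The 12 libraries held 7.02 to 18.3 M tags, and the shallowest were in C57 with IL-4, NOD with IL-4 and C57 basal. All 12 macrophage markers on the list (among them Csf1r, Adgre1 and Lyz2) were tested, and their summed level was 26175 to 26942 TPM in C57 basal, 21377 to 22521 TPM in C57 with IL-4, 19473 to 20463 TPM in NOD basal and 18890 to 20007 TPM in NOD with IL-4. The marker lists of B cells, of T and NK cells, of mast cells with basophils and eosinophils, of dendritic cells and of erythroid cells each summed to at most 3.99 TPM in any of these libraries. At these low levels the NOD libraries had less B cell marker RNA than the C57 libraries and more T and NK cell marker RNA (3.12 to 3.86 TPM in NOD and 1.50 to 2.38 TPM in C57, both states together). They also had more fibroblast marker RNA (14.9 to 16.7 TPM in NOD basal and 4.85 to 5.91 TPM in C57 basal, nearly all Dcn). The endothelium markers, mostly Vwf, went from 13.4 to 17.2 TPM in C57 basal to 22.8 to 24.9 TPM in C57 with IL-4, and from 13.7 to 14.4 TPM to 16.3 to 18.3 TPM in NOD. The part of such cells in the results was not tested. Ferritin heavy chain, Fth1, was the top gene, at no more than 67814 TPM in C57 basal and no less than 90390 TPM in NOD basal, and the median-ratio scale factors ran from 0.785 to 0.821 in NOD basal and from 1.03 to 1.10 in C57 basal. The libraries are numbered as replicates in the labels and were biological replicates by the methods, and the spread between them is what the tests use.

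IL-4 changed fewer genes past 2-fold in NOD than in C57 BMDMs. With limma across 11907 genes, 271 genes were induced and 182 repressed in C57 (2.28% and 1.53% of genes tested), against 87 and 55 in NOD (0.731% and 0.462%), at an adjusted p under 0.05 and a change past 2-fold. The induced sets shared 65 genes and the repressed sets 21. Over the 271 genes induced in C57, the median response was 1.51 in C57 and 0.54 in NOD. Over the 182 repressed genes it was -1.27 and -0.38. The C57 medians describe the choice of genes, since the C57 libraries chose them.

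The test of the difference itself called 294 genes (2.47% of those tested), 170 with the smaller response in NOD (1.43%) and 124 with the larger one (1.04%). Here "smaller" means more negative and "larger" more positive, so that a fall that was weaker in NOD counts as larger. At an adjusted p under 0.05 with no limit on size, 3968 genes (33.3%) passed. Of the 170 genes, 136 were induced in C57, and of these 28 were also induced in NOD and 108 were not called there. A further 16 were repressed in NOD and not called in C57, and 18 passed in neither strain alone. Of the 124 genes, 70 were repressed in C57. In NOD, 6 of these were also repressed, 63 were not called, and 1, the small nucleolar RNA gene Snora43, was induced. There were 6 genes induced in NOD and not called in C57, 1 induced in both with the larger rise in NOD (Lad1), and 47 that passed in neither strain alone. A rise in NOD that passed the test was thus found in 8 of the 124.

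As deposited, the median of all 11907 differences was 0.17, from median responses of 0.12 in NOD and -0.04 in C57. With the libraries rescaled to a common median ratio, that median was -0.02 and the calls split into 232 smaller and 66 larger, and with quantile normalization into 214 smaller and 75 larger. The pseudocount turned the split around: with 0.1 TPM in place of 1 TPM there were 263 smaller and 358 larger calls (42.4% smaller, against 57.8%), and with 5 TPM 104 and 45. With median-ratio scaling, 169 of the 170 smaller calls and 66 of the 124 larger ones were called again. Below, medians of gene lists stand beside the 0.17 of all genes, and their counts of calls beside the 1.43% smaller and 1.04% larger.

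**Figure D1:**
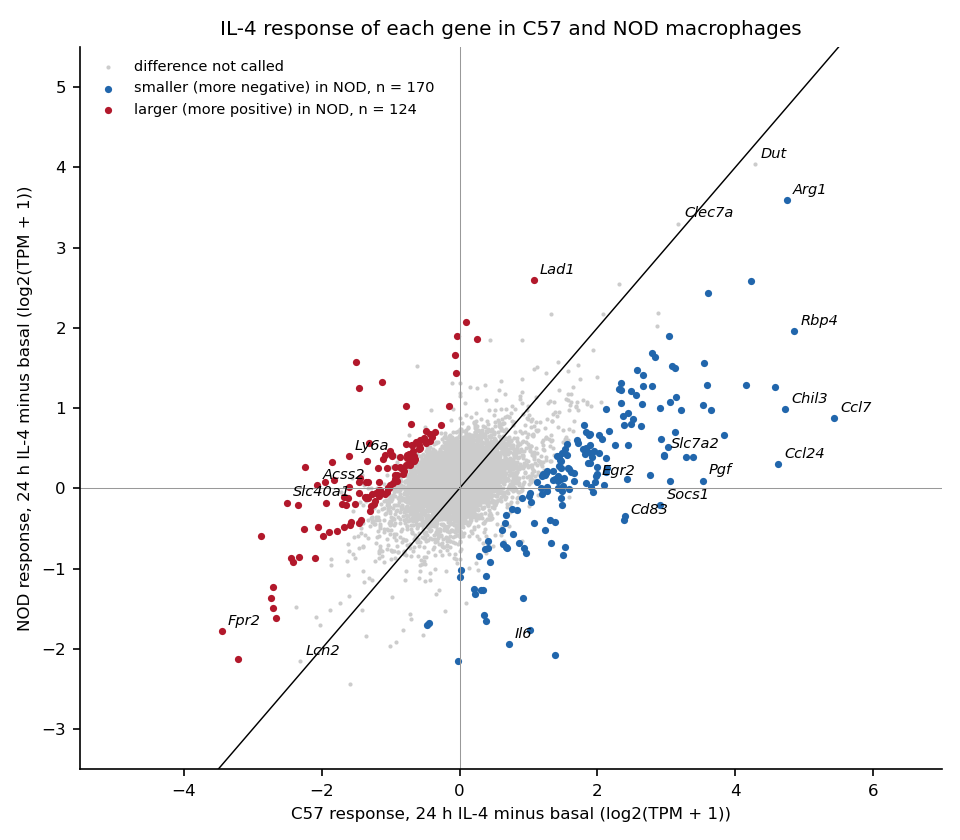
Each point is 1 of 11907 genes, placed by its C57 response (x axis) and its NOD response (y axis), both 24 hours of IL-4 minus basal on the log2(TPM + 1) scale, with the diagonal marking equal responses. Blue points are the 170 genes with the smaller response in NOD, most of which lie to the right and close to the horizontal zero line, and red points are the 124 with the larger response in NOD, most of which lie to the left of zero.

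Chemokines, the secreted attractants of leukocytes, held the 2 most negative differences among genes that reached 10 TPM in a group. Ccl7, a ligand of the monocyte receptor CCR2, was at 6.31, 6.30 and 5.74 TPM in C57 basal and at 331, 322 and 270 TPM in C57 with IL-4. In NOD it was at 51.5, 51.2 and 49.0 TPM basal and at 103, 88.1 and 90.2 TPM with IL-4. Basal NOD libraries thus lay above basal C57 libraries, and the order was reversed after IL-4 with no overlap. The response of Ccl7 was 5.43 in C57 and 0.87 in NOD, a difference of -4.56 ± 0.13 (SE; limma adjusted p = 3.1e-18).

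Ccl24, an eosinophil attractant, rose from 0.137, 0.390 and 0.103 TPM to 24.0, 30.7 and 32.1 TPM in C57. In NOD it was at 0.082, 0.197 and 0 TPM basal and at 0.200, 0.380 and 0.459 TPM with IL-4. The basal levels did not pass the test (adjusted p = 0.39), and after IL-4 every C57 library was above every NOD library, for a difference in response of -4.33 ± 0.21. Ccl12, another CCR2 ligand, showed the pattern of Ccl7 at a lower level, with means of 3.11 ± 0.791 and 95.8 ± 9.71 TPM in C57 and 7.67 ± 0.691 and 20.0 ± 3.73 TPM in NOD (SD, n = 3), and it was induced in both strains.

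Of 21 chemokine genes tested, 12 had the smaller response in NOD and none the larger (1.43% and 1.04% of all genes tested), and the median difference of the list was -1.19. Beside the 3 above these were Ccl2, Ccl4, Ccl6, Ccl8, Ccl9, Ccl22, Cxcl1, Cxcl2 and Cxcl3, which lie outside the naming rule. They did not share 1 course. Ccl2 rose from 7.73 to 106 TPM in C57 and went from 43.2 to 85.9 TPM in NOD. The neutrophil attractants Cxcl1 and Cxcl2 were instead repressed in NOD, from means of 84.8 to 18.4 TPM and of 191 to 60.1 TPM, whereas in C57 they stood at 1.95 and 1.77 TPM and at 11.4 and 15.2 TPM. Cxcl10, an attractant of activated T cells, fell in both, from 9.41 to 2.91 TPM in C57 and from 167 to 57.6 TPM in NOD, with responses of -1.42 and -1.52. At basal, 12 of the 21 chemokine genes were higher in NOD past 2-fold and 2 were lower (5.15% and 11.7% of all genes tested).

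Among 27 alternative activation markers tested, 22 had the smaller response in NOD and none the larger (1.43% and 1.04% of all genes tested). This list and the others were written with earlier results of these data known, and they hold genes that the study itself discussed from these libraries. The median difference was -1.93, from median responses of 2.93 in C57 and 0.66 in NOD. In C57, 25 of the 27 were induced and in NOD 10 were (2.28% and 0.731% of all genes tested). Of all 271 genes induced in C57, 136 had the smaller response in NOD. That is a nearer comparison for this list than the 1.43% of all genes.

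Chil3 encodes the chitinase-like protein Ym1, a standard marker of IL-4-treated mouse macrophages. It stood at 63.6, 71.2 and 61.3 TPM in C57 basal and at 1726, 1855 and 1667 TPM in C57 with IL-4. The NOD libraries were at 2.92, 3.10 and 2.64 TPM and at 7.91, 5.76 and 6.57 TPM. Even with IL-4, every NOD library lay below every untreated C57 library, and the difference in response was -3.73 ± 0.31 (limma adjusted p = 1.9e-09). Chil4, its close paralog, was called in the same direction at up to 3.07 TPM, and reads that both genes could have produced make these values uncertain.

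The mannose receptor Mrc1 and the galactose-type lectin Mgl2, both endocytic receptors of alternatively activated macrophages, also separated the strains. Mrc1 rose from 14.96 ± 0.98 to 192 ± 16.9 TPM in C57 and from 3.75 ± 0.204 to 10.7 ± 1.45 TPM in NOD (SD, n = 3). Mgl2 rose from 2.40 ± 0.425 to 47.4 ± 0.854 TPM in C57, and in NOD it was at 1.38 ± 0.104 and 2.82 ± 0.828 TPM. For both genes every NOD library with IL-4 lay below every C57 library with IL-4. The differences were -2.30 ± 0.12 and -3.18 ± 0.20 (SE). Pdcd1lg2, which encodes the PD-1 ligand PD-L2, was at no more than 0.394 TPM in any basal library and reached 9.57, 9.65 and 10.4 TPM in C57 with IL-4, but 0.276, 0.430 and 0.130 TPM in NOD with IL-4, for a difference of -2.96 ± 0.15. It was the only one of 15 MHC class II and antigen presentation genes that was called, and the median of that list was -0.25. Retnla, another textbook marker, which lies outside the naming rule, was at 2.97 to 4.91 TPM in C57 basal and 3.90 to 5.10 TPM in C57 with IL-4 and was listed at 0 in all 6 NOD libraries.

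**Figure D2:**
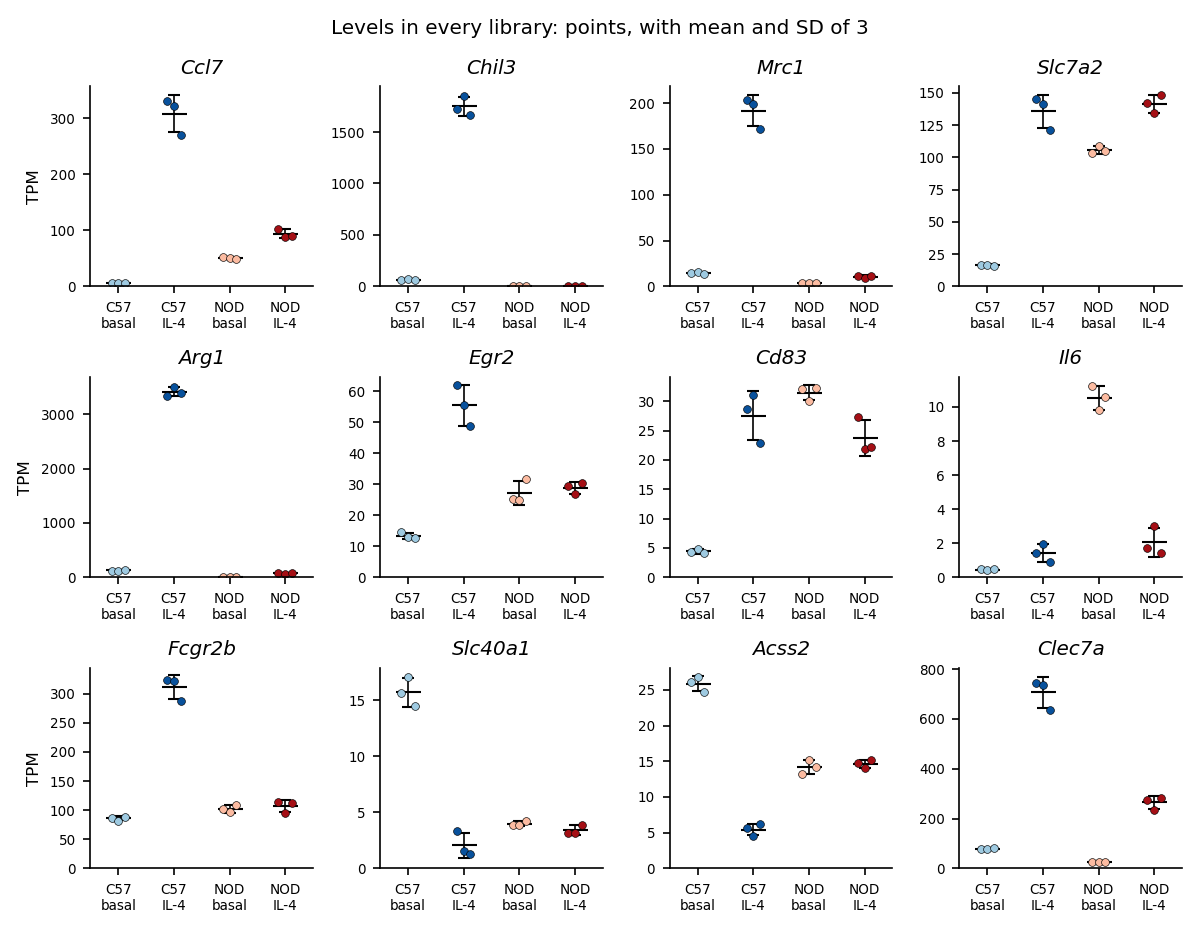
Points are the TPM of single libraries of 12 named genes (linear y axis from 0, its own scale in each panel), with the mean and SD of 3 libraries, for C57 and NOD, basal and with 24 hours of IL-4. Ccl7, Chil3, Mrc1, Egr2 and Fcgr2b rise steeply in C57 and much less in NOD, Slc7a2 and Cd83 start high in NOD, Slc40a1 and Acss2 fall in C57 and stay near their level in NOD, and Clec7a rises in both.

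Rbp4, Ch25h and Msx3 were at no more than 1.39 TPM in any basal library and rose less in NOD. Rbp4, the plasma carrier of retinol, reached 31.3, 28.8 and 32.3 TPM in C57 with IL-4 and 3.34, 3.53 and 3.52 TPM in NOD with IL-4. Ch25h, the cholesterol 25-hydroxylase, reached 29.7, 30.0 and 28.6 TPM and 2.60, 3.26 and 2.51 TPM. Both were induced in both strains, with differences of -2.90 ± 0.16 and -2.86 ± 0.15. Msx3, a homeobox transcription factor, went from 0.986 to 18.1 TPM in C57, while NOD libraries stayed at 0.139, 0.111 and 0 TPM basal and 0.375, 0.570 and 0.323 TPM with IL-4, a difference of -2.89 ± 0.17. In every one of these genes the C57 and NOD libraries with IL-4 did not overlap. Such separation, here and for the other named genes, is a description, since the same libraries chose the genes.

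The promoters of these 3 genes are shown because, of 11 windows of the 9 genes with the most negative differences that matched the promoter table, theirs hold the 4 with a motif of a factor family of the IL-4 response. The sequences are RefSeq windows on GRCm38.p6, which is the C57BL/6J reference and gives no NOD allele, from 250 bases before to 50 bases after a transcription start, written 5′ to 3′ on the gene's strand. Both strands were searched for a STAT6 type of site (TTC and GAA with 4 bases between them), TTGCNNAA (C/EBP) and GCGTGGG (EGR), and matches are in capitals. The windows lie at chr19:38124762-38125061 and chr19:38125272-38125571 (2 starts of Rbp4), chr19:34475099-34475398 (Ch25h) and chr7:140049039-140049338 (Msx3), all on the minus strand.
Rbp4, first start, C/EBP match at -128: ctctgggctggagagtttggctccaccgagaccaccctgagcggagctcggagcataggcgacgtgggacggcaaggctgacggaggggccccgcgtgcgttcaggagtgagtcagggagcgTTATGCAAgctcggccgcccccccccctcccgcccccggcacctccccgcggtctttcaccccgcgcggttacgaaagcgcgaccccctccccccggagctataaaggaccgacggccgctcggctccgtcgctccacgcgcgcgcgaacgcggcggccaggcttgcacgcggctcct
Rbp4, second start, STAT6 match at -120: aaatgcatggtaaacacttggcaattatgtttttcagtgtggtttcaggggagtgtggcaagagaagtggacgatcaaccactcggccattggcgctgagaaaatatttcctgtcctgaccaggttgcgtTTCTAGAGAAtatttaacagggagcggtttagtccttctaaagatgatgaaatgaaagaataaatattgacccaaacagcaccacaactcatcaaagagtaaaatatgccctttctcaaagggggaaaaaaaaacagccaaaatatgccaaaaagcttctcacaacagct
Ch25h, C/EBP match at -112: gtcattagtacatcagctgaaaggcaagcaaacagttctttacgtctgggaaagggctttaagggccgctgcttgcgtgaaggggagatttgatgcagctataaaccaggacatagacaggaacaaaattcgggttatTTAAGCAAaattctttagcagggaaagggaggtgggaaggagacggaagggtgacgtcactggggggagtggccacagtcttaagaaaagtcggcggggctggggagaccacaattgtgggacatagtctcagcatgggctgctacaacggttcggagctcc
Msx3, EGR match at 41: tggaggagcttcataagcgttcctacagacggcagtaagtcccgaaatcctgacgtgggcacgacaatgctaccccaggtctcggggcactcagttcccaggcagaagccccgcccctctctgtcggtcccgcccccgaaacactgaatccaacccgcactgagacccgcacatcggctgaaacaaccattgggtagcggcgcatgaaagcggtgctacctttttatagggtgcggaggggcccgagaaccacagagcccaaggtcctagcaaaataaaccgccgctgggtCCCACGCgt
Over the 143 windows of 101 matched genes that were induced in C57 with a smaller response in NOD, 8.39% held the STAT6 motif, 11.9% the C/EBP motif and 9.79% the EGR motif. Over all 11507 windows of genes tested the shares were 5.47%, 8.71% and 8.33%. Over the 66 windows of 49 matched genes that were repressed in C57 with a larger response in NOD they were 3.03%, 15.2% and 4.55%. A match is a description of these letters and not a bound site.

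Neither the receptor gene Il4ra nor Stat6 was called. Il4ra, the receptor chain that binds IL-4, was at 33.2, 38.8 and 33.6 TPM in C57 basal, 37.5, 39.3 and 37.9 TPM in C57 with IL-4, 20.9, 23.3 and 23.7 TPM in NOD basal and 22.2, 21.6 and 23.3 TPM in NOD with IL-4. Its difference in response was -0.14 ± 0.08 (adjusted p = 0.21). Stat6 was at 53.9 ± 4.93 and 56.0 ± 4.26 TPM in C57 and at 21.6 ± 0.491 and 28.6 ± 1.37 TPM in NOD, so that every NOD library lay below every C57 library in both states, and its level at basal differed by -1.28 (adjusted p = 5.8e-15). The difference in the response of Stat6, 0.33 ± 0.09 (adjusted p = 0.0074), was not past 2-fold.

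Of 23 IL-4 receptor and signalling genes tested, 3 were called, all smaller in NOD, and all 3 are feedback inhibitors of JAK-STAT signalling that STAT factors induce. Socs1 rose from 1.88, 3.16 and 1.47 TPM to 22.4, 21.4 and 23.1 TPM in C57, while in NOD it was at 3.57, 4.59 and 2.97 TPM basal and 2.33, 3.75 and 3.15 TPM with IL-4. The NOD ranges overlapped between basal and IL-4, and the difference in response was -3.12 ± 0.28 (limma adjusted p = 7.7e-09). Cish went from 2.16 to 35.3 TPM in C57 and from 1.89 to 4.94 TPM in NOD, and Socs2 from 0.352 to 4.92 TPM and from 1.61 to 1.98 TPM, for differences of -2.49 ± 0.13 and -1.93 ± 0.18. The median of the 23 genes was 0.21, close to that of all genes.

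Among 30 transcription factors of the IL-4 response, 11 had the smaller response in NOD and none the larger, with a median of -0.46 (1.43% and 1.04% of all genes were called in these directions). Egr2, a zinc finger factor induced by IL-4, rose from 14.4, 13.1 and 12.5 TPM to 62.0, 55.5 and 48.7 TPM in C57. In NOD it was at 25.2, 24.8 and 31.7 TPM basal and at 29.3, 26.8 and 30.4 TPM with IL-4, so that the NOD ranges overlapped. The difference was -1.88 ± 0.13 (limma adjusted p = 2.9e-11). Pparg, the nuclear receptor PPARγ, rose in both strains, from 3.85 to 23.5 TPM in C57 and from 5.04 to 13.9 TPM in NOD. Its difference of -1.03 ± 0.11 sat at the 2-fold limit, and it was -0.96 without the second C57 basal library and -0.97 without the first NOD basal library, both short of it. Myc, a growth regulator, was at 1.88 and 4.58 TPM in C57 and at 20.2 and 11.1 TPM in NOD, and it was called in neither strain alone but differed by -1.77 ± 0.16.

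Genes of arginine use differed in opposite ways at basal. Arg1, the arginase that IL-4 is best known to induce, was at 124, 117 and 137 TPM in C57 basal and at 3341, 3507 and 3386 TPM in C57 with IL-4. In NOD it was at 6.21, 7.54 and 3.02 TPM basal and at 78.4, 68.2 and 77.2 TPM with IL-4. The NOD libraries with IL-4 lay below the untreated C57 libraries, although Arg1 was induced in both strains (ratio of means 27.0 in C57 and 13.3 in NOD). Its difference in response was -1.16 ± 0.23 (adjusted p = 4.1e-04), and this was -0.94, short of 2-fold, without the second NOD basal library, where Arg1 was highest of the 3.

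Slc7a2, which takes arginine up into macrophages, was at 16.6, 16.8 and 15.7 TPM in C57 basal and at 145, 141 and 121 TPM in C57 with IL-4. In NOD it was at 103, 109 and 105 TPM basal and at 142, 134 and 148 TPM with IL-4. The strains were far apart before IL-4 and overlapped after it (difference after IL-4 0.06, adjusted p = 0.44), which gave a difference in response of -2.55 ± 0.10 (adjusted p = 3.0e-15). Slc7a1, a related cationic amino acid transporter, rose from 1.18 to 4.82 TPM in C57 and was at 6.87 and 7.74 TPM in NOD, above C57 in both states, for a difference of -1.27 ± 0.14. These 3 were the only calls among 21 arginine and polyamine genes, whose median was -0.12.

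Other genes among the 12 most negative differences were Pgf, Tuba8 and Cd83. Pgf, a growth factor of the VEGF family, rose from 0.839, 0.398 and 0.683 TPM to 14.5, 16.8 and 22.9 TPM in C57 and was at 5.64, 5.58 and 4.60 TPM and at 5.86, 5.57 and 5.63 TPM in NOD. Tuba8, an alpha tubulin, rose to 10.3 TPM in C57 and to 0.483 TPM in NOD. Cd83, a surface protein of activated antigen-presenting cells, rose from 4.42 ± 0.391 to 27.5 ± 4.21 TPM in C57, while NOD was at 31.4 ± 1.26 TPM basal and 23.8 ± 3.07 TPM with IL-4 (SD, n = 3). Its levels differed between the strains at basal and did not pass the test after IL-4 (adjusted p = 0.056), as for Slc7a2. The differences of Pgf, Tuba8 and Cd83 were -3.43 ± 0.27, -3.01 ± 0.18 and -2.78 ± 0.13. The inhibitory Fc receptor Fcgr2b rose from 86.1 to 311 TPM in C57 and was at 103 and 107 TPM in NOD, a difference of -1.78 ± 0.08. It was 1 of 4 smaller and 2 larger calls among 28 scavenger, lectin and Fc receptors, whose median was 0.15, and its neighbour Fcgr3, related in sequence, was called in the same direction.

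Il6 and Ptgs2 were high in untreated NOD cells. Il6, an inflammatory cytokine, was at 0.465, 0.441 and 0.466 TPM in C57 basal and at 1.42, 1.96 and 0.897 TPM in C57 with IL-4. In NOD it fell from 11.2, 9.83 and 10.6 TPM to 1.74, 3.01 and 1.43 TPM, and the ranges of the strains with IL-4 overlapped. The difference was -2.66 ± 0.23 (adjusted p = 2.7e-09). Ptgs2, the inducible cyclooxygenase, rose from 7.48 to 20.2 TPM in C57 and was at 135 TPM basal and 84.4 TPM with IL-4 in NOD, which stayed above C57 in both states. Mmp13, a collagenase, rose in both, from 3.77 to 54.5 TPM in C57 and from 25.1 to 76.5 TPM in NOD. The differences of Ptgs2 and Mmp13 were -2.01 ± 0.12 and -1.97 ± 0.13. Among 36 inflammatory and acute-phase genes, 4 had the smaller and 5 the larger response in NOD (1.43% and 1.04% of all genes), with a median of -0.01. In C57, 11 of them were repressed and 4 induced (1.53% and 2.28% of all genes). In NOD 13 were repressed and 2 induced (0.462% and 0.731%).

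The genes with the larger response in NOD were mostly genes that IL-4 lowered in C57. Slc40a1, the iron exporter ferroportin, fell from 15.6, 17.1 and 14.4 TPM to 3.33, 1.56 and 1.31 TPM in C57, while NOD was at 3.87, 3.83 and 4.22 TPM and at 3.18, 3.14 and 3.89 TPM. Untreated NOD cells were below untreated C57 cells, and the difference in response was 2.32 ± 0.20 (limma adjusted p = 4.2e-09). Ifitm6, of the interferon-induced transmembrane family, fell from 69.9 ± 10.1 to 8.59 ± 1.05 TPM in C57 and was at 17.7 ± 1.20 and 11.4 ± 1.70 TPM in NOD, a difference of 2.28 ± 0.18.

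Acss2, which makes acetyl-CoA from acetate, fell from 26.1, 26.9 and 24.7 TPM to 5.65, 4.52 and 6.14 TPM in C57 and stayed at 13.3, 15.2 and 14.2 TPM and at 14.8, 14.002 and 15.1 TPM in NOD. All NOD libraries lay between the C57 groups, with a difference of 2.11 ± 0.12 (adjusted p = 8.8e-13). Acss2os, an antisense gene within its bounds, was called with it, and since the strand setting of the counting is not given in the sources used here, reads of the 2 cannot be told apart. Ly6a, the surface antigen Sca-1, fell from 187 to 61.4 TPM in C57 and was at 92.0 and 122 TPM in NOD. St3gal5, the sialyltransferase that makes ganglioside GM3, fell from 45.4 to 17.7 TPM and was at 20.8 and 31.2 TPM. Their differences were 2.01 ± 0.20 and 1.88 ± 0.10.

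Fpr2, a formyl peptide receptor, was repressed in both strains, from 107 to 8.91 TPM in C57 and from 65.8 to 18.4 TPM in NOD, a difference of 1.67 ± 0.13. Cav1, the caveolar coat protein, fell from 29.8 to 4.67 TPM in C57 and was at 21.5 and 11.4 TPM in NOD. Mcemp1, a membrane protein of myeloid cells, fell from 27.8 to 6.51 TPM in C57 and was at 13.4 and 11.7 TPM in NOD. The calprotectin subunit S100a9, abundant in neutrophils, fell from 17.0 to 4.90 TPM in C57 and was at 2.05 and 1.93 TPM in NOD. The differences of Cav1, Mcemp1 and S100a9 were 1.58 ± 0.11, 1.76 ± 0.18 and 1.56 ± 0.33. Of 10 markers of neutrophils and their precursors, 6 were tested and 2 called (S100a8 and S100a9), and their summed level was 113 to 140 TPM in C57 basal, 20.8 to 26.5 TPM in C57 with IL-4, 41.6 to 53.1 TPM in NOD basal and 15.3 to 19.2 TPM in NOD with IL-4. Fewer cells of a type and less RNA per cell cannot be told apart in bulk samples, and the part of such cells in these results was not tested.

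Of the remaining genes in this group, Tnfrsf14, the receptor HVEM, and Malat1, a nuclear long noncoding RNA, had 1 high library in C57 basal. Tnfrsf14 was at 10.7, 38.2 and 10.4 TPM in C57 basal, and its difference of 1.50 ± 0.42 fell to 0.91 without the second C57 basal library, which also held the highest Malat1 (92.7 TPM against 48.3 and 51.4 TPM). The difference of Malat1 was 1.51 ± 0.33 and was still called without that library. Lad1, an anchoring filament protein, rose from 0.116 to 1.37 TPM in C57 and from 2.64 to 20.9 TPM in NOD, every NOD library with IL-4 lying between 20.0 and 22.0 TPM. Its difference of 1.52 ± 0.15 depends on the pseudocount, because C57 levels were near 0. With 0.1 TPM in place of 1 TPM it was 0.004, as the ratio of means was 11.8 in C57 and 7.94 in NOD.

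The receptor of the chemokine fractalkine, Cx3cr1, was at 4.98 TPM in C57 basal and at 0.179 TPM with IL-4, and in NOD it was at 0.485 and 0.285 TPM, so that its difference of 2.14 ± 0.13 came with a low NOD level in both states. It was the 1 call among 9 chemokine receptors, whose median was 0.41. Among 46 interferon-stimulated genes, the larger response was in NOD for 4 and the smaller for none (1.04% and 1.43% of all genes), with a median of 0.36. With median-ratio scaling 3 were called and the median was 0.12, beside -0.02 for all genes. Ifit3 fell from 56.0 to 17.7 TPM in C57 and was at 144 and 132 TPM in NOD, and Ifit2 fell from 42.7 to 20.4 TPM and was at 121 and 144 TPM. Both encode antiviral RNA-binding proteins, and Ifit3b, near in sequence to Ifit3, moved with it, so that their reads may be shared. At basal 14 of the 46 were higher in NOD past 2-fold and 1 was lower (5.15% and 11.7% of all genes).

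Of 34 genes of lipid uptake, storage and efflux, 3 had the larger response in NOD and 1, Ch25h, the smaller (1.04% and 1.43% of all genes), with a median of 0.24. With median-ratio scaling, 1 larger and 1 smaller call were made and the median was 0.045. Acsl1, which activates fatty acids, fell from 139 to 52.9 TPM in C57 and was at 244 and 227 TPM in NOD, a difference of 1.26 ± 0.09.

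No gene was called among 38 cell cycle genes, 27 glycolysis and hypoxia genes, 52 subunits of oxidative phosphorylation or 84 cytosolic ribosomal proteins. The medians of these lists were 0.17, 0.01, 0.03 and -0.13, and at an adjusted p under 0.05 with no limit on size 13, 13, 12 and 19 of their members passed by limma (17, 15, 16 and 25 at an unadjusted p under 0.05). Over all genes tested 2.47% were called, so lists of this size would hold few calls or none. At an adjusted p under 0.05, 33.3% of all genes passed. The share of all genes at the unadjusted p is not given here.

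Of the genes called in both strains in 1 direction, 6 with a difference under 0.25 were named, Cxcl10 above and 5 more. Dut, which removes dUTP from the nucleotide pool, rose from 4.56, 4.00 and 3.93 TPM to 89.6, 103 and 106 TPM in C57 and from 9.96, 10.6 and 9.43 TPM to 171, 190 and 180 TPM in NOD. The ratio of means was 23.9 in C57 and 18.01 in NOD, with responses of 4.28 and 4.04. The β-glucan receptor Clec7a rose from 77.2 to 706 TPM and from 25.9 to 265 TPM, with responses of 3.17 and 3.30 and a lower NOD level in both states. Rnf19b, a ubiquitin ligase, rose from 111 to 471 TPM and from 60.7 to 278 TPM, and Gm15056 from 4.08 to 23.2 TPM and from 50.0 to 296 TPM. Lcn2, the siderophore-binding lipocalin, fell from 83.7 to 16.0 TPM and from 133 to 29.4 TPM. The adjusted p of the 6 differences lay between 0.11 and 0.66, which does not show that the responses are equal.

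**Figure D3:**
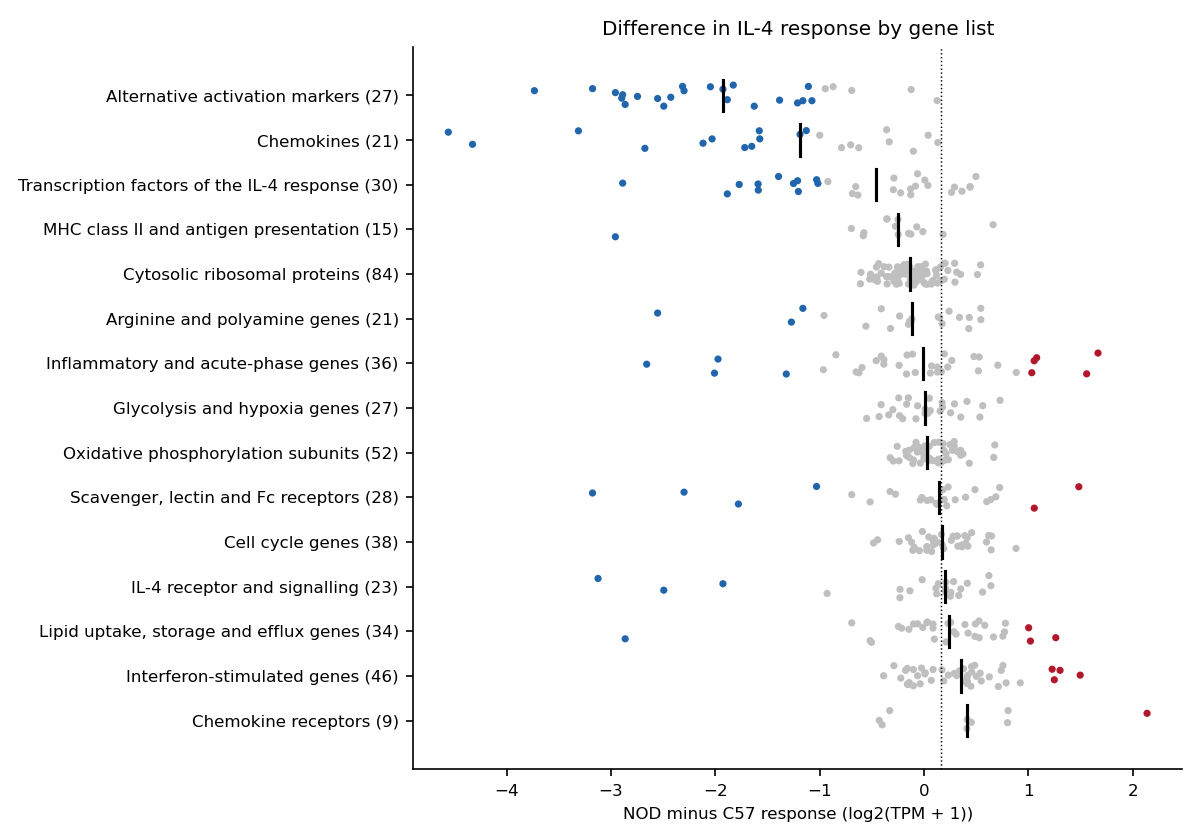
Each point is the NOD minus C57 response of 1 gene (log2(TPM + 1) scale), by gene list with the number of genes tested in brackets, in blue or red where called smaller or larger in NOD and in gray otherwise. Black bars are list medians and the dotted line is the median of all genes tested, 0.17. The medians of alternative activation markers (-1.93) and chemokines (-1.19) lie farthest to the left.

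Short RNA genes, 291 of which were tested, held 5 smaller and 11 larger calls, where over all genes 1.43% and 1.04% were called. With median-ratio scaling there were 5 and 6. The values were low and uneven, for example 1.20, 9.14 and 5.43 TPM of Mir1982 in C57 basal and 7.25, 0 and 1.41 TPM in NOD basal. Snord47 and Mir6927 had the most negative differences of this list (-3.47 ± 0.85 and -2.78 ± 0.77). Poly(A) selection is not made for such short RNAs, and longer transcripts overlap many of them, so these calls are uncertain.

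The study asks whether a weaker response comes with a high, equal or low basal level in the less responsive strain. For the 136 genes induced in C57 with a smaller response in NOD, the NOD basal level was higher by more than 1.5-fold for 46 (33.8%), within 1.5-fold for 58 (42.6%) and lower for 32 (23.5%). Over all genes tested the shares were 10.6%, 59.1% and 30.3%. The high class held 88 genes with 0.1 TPM as the pseudocount and 23 with 5 TPM. Basal libraries enter both the level and the response, so these are not independent. For a given level after IL-4, a higher NOD basal level means a smaller NOD response. The difference after IL-4 is the basal difference plus the difference in response, so the low class had to end lower in NOD and nearly all of the equal class did too. In the high class, where the sum could fall on either side, 6 of the 46 ended lower in NOD past 2-fold, 7 higher and 33 neither, where over all genes 7.73% were lower and 5.44% higher. Chil3, Arg1, Mrc1 and Msx3 belong to the low class, Ccl24, Cish, Rbp4 and Ch25h to the equal class, and Slc7a2, Cd83, Ccl7, Ptgs2 and Egr2 to the high class.

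For the 70 genes repressed in C57 with a larger response in NOD, the NOD basal level was lower for 47 (67.1%), within 1.5-fold for 15 (21.4%) and higher for 8 (11.4%), against the same 30.3%, 59.1% and 10.6% of all genes tested. These classes depend on scale, since the median NOD minus C57 basal difference of all genes tested was -0.295 as deposited and 0 with median-ratio scaling. This set of genes was also smaller with that scaling. At the same level after IL-4, a lower NOD basal level means a larger response. After IL-4, 20 of the 70 were higher in NOD past 2-fold, 6 lower and 44 neither (5.44% of all genes were higher and 7.73% lower). The same arithmetic sets this outcome for the high class, all 8 of which ended higher. Of the 47 genes of the low class, 2 ended higher, 6 lower and 39 neither. Slc40a1, Ifitm6, Ly6a, S100a9 and Fpr2 were low in untreated NOD cells, Cav1 was within 1.5-fold, and Ifit2 and Ifit3 were high.

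The other 3 strains show how far each of the 2 responses lay from them. These are descriptions, since the C57 and NOD libraries chose the genes. Over the 136 genes the median response was 0.87 in BALB, 0.96 in PWK and 0.88 in SPRET, between the 1.98 of C57 and the 0.41 of NOD. BALB induced 62 of them, PWK 65 and SPRET 64. The NOD response was below the mean of the other 3 strains past 2-fold for 44 genes and the C57 response above it for 63, with 14 in both counts and 43 in neither. Over all genes tested 0.68% and 0.731% passed in these directions. C57 had the highest response of the 5 strains for 91 of the 136 genes and NOD the lowest for 79. The choice of genes favours both ranks, and their shares over all genes are not given here.

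Rbp4, Cish and Egr2 were among the genes in which NOD, and not C57, departed past 2-fold from the mean of the other 3 strains. For Ccl24, Ccl12, Ccl7 and Arg1 both departed (NOD by -3.27, -1.95, -1.63 and -2.44, C57 by 1.06, 1.36, 2.93 and -1.28). The Socs1 response was also lowest in NOD, at -0.21, but the other strains were widely spread. They were at 0.96 in PWK, 1.18 in BALB, 2.91 in C57 and 5.70 in SPRET. The Rbp4 response was 1.96 in NOD and 4.85, 4.85, 5.38 and 3.75 in C57, BALB, PWK and SPRET, and the NOD response minus the mean of BALB, PWK and SPRET was -2.71 ± 0.13 (adjusted p = 1.9e-13), against 0.19 ± 0.13 for C57 (adjusted p = 0.33). For Egr2 the response was 0.08 in NOD and 1.08 to 4.09 in the other 4 strains. In Pgf and Cd83, C57 stood apart in these libraries, and in Msx3 it did so with BALB. Pgf had a response of 3.53 in C57 and of 0.10 to 0.79 in the other 4 strains, and Cd83 of 2.39 in C57 and of -0.39 to 0.42 in the others. The separate C57 time course gave 0.58 for Pgf, within the range of the other 4 strains, and 0.79 for Cd83. Msx3 responded in C57 (3.28) and BALB (2.29) and was at 0.39 or less in NOD, PWK and SPRET.

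Over the 70 genes repressed in C57, the median response was -0.82 in BALB, -0.35 in PWK and -0.50 in SPRET, against -1.46 in C57 and -0.11 in NOD. The C57 response was below the mean of the other 3 strains past 2-fold for 27 genes and the NOD response above it for 5, where over all genes tested 0.596% and 0.286% passed. C57 had the lowest response of the 5 strains for 56 of the 70 genes and NOD the highest for 33, ranks that the choice of genes again favours. Acss2, for example, had a response of -2.07 in C57 and of -0.54 to 0.04 in the other 4 strains. In Cx3cr1 it was NOD that departed from the mean of the other 3 strains (by 2.07, against -0.07 for C57).

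**Figure D4:**
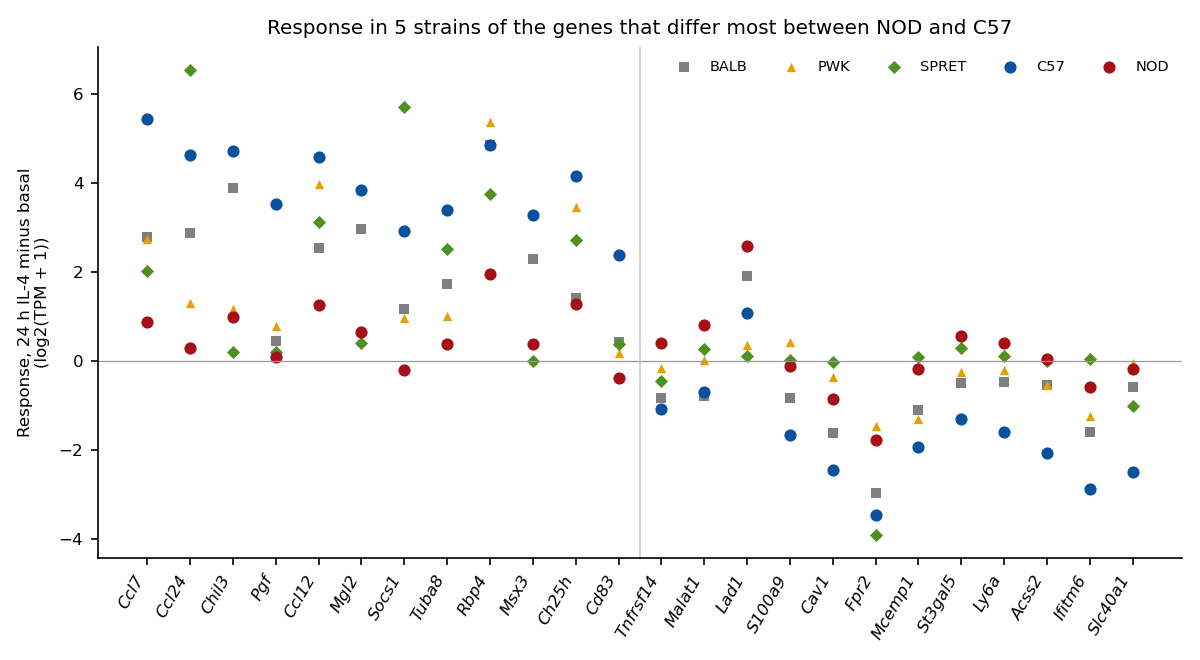
Responses (24 hours of IL-4 minus basal, log2(TPM + 1) scale) in 5 strains of the 12 genes with the most negative and the 12 with the most positive NOD minus C57 difference among those with a group mean of at least 10 TPM, in order of that difference, with 1 point for each strain. On the negative side, NOD lies lowest for Ccl7, Ccl24, Pgf, Ccl12, Socs1, Tuba8, Rbp4, Ch25h and Cd83. C57 alone lies high for Pgf and Cd83, and it lies lowest for Acss2 and Ifitm6, among others.

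Libraries that the comparison did not use gave further values for the same genes, each table scaled apart and read only within itself, without a test. In the C57 time course (2 libraries per time), the 136 genes had a median response of 1.79 at 24 hours, and 104 rose past 2-fold, against 3.01% of all genes tested. In Egr2fl/fl control BMDMs (2 libraries per group), the median was 1.75 and 105 rose past 2-fold (2.35% of all genes tested). The 70 repressed genes had medians of -1.62 and -1.44 in these tables. Some genes were less steady across these sets of libraries. Pgf, at 3.53 in the 5-strain table, had responses of 0.58 and 0.67, and Cd83, at 2.39, had 0.79 and 1.28, while Ccl7 had 4.95 and 4.99 and Chil3 4.42 and 4.59. S100a9, at -1.67 in the 5-strain table, had -0.12 and -1.18, and Gm15056, at 2.31, had 0.31 and 1.36.

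The Egr2 deletion shows what these genes did without that factor. The background strain of these mice is not given in the sources used here. Egr2 was at 101 and 99.5 TPM in Egr2fl/fl BMDMs with 24 hours of IL-4 and at 4.72 and 7.05 TPM in LyzM-Cre Egr2fl/fl BMDMs. Of the 136 genes, 19 had a response lower by more than 2-fold in the deletion and 23 a higher one (1.26% and 1.49% of all genes tested), with a median change of 0.02. Rbp4 was among the lower ones, with responses of 5.25 in controls and 0.89 in the deletion, and so was Tuba8, with 4.48 and 1.64. Mgl2 and Msx3 were instead higher, by 1.04 and 1.27. Cish, at 3.88 and 3.17, and Slc7a2, at 4.67 and 4.62, changed by less than 2-fold.

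The F1 of C57 and NOD carries both alleles in 1 cell, so that the alleles share all factors other than their own linked sequence. There were 2 basal and 2 IL-4 libraries, with values assigned to the C57 or the NOD allele by reads over variants, and 78.9 to 83.6% of genes were at 0 for an allele in a library. A gene at 0 has no reading here, and the depth behind a value is unknown. For another F1 of the study, the methods scale a transcript's read count by a ratio of reads over variants, with a fixed factor. The same weighting is assumed here. Read in this way, both alleles would inherit the same total of the gene. A response was therefore taken only where both alleles were above 0 in all 4 libraries, which held for 3139 (26.4%) of the genes tested and leaves out genes that are near 0 in either state. Over these genes the median response was -0.15 for C57 and -0.17 for NOD alleles.

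Of the 136 genes, 33 could be read in this way, and 4 more, Rbp4, Cish, Rras2 and Serpina3g, only with IL-4. In the parental strains the median difference of the 33 was -1.45. In the F1 the median response was 1.25 for C57 alleles and 1.13 for NOD alleles, with a median difference of -0.019. Both alleles rose past 2-fold for 17 of the 33, against 2.48% of all genes read. The allele responses differed past 2-fold for 1 gene, Plekhf1, with the NOD allele higher, and for none with it lower, where over all genes read 7.01% and 6.34% did so.

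Single genes had the following values. For Fcgr2b the alleles had responses of 2.07 (C57) and 1.66 (NOD), and the strains 1.84 and 0.06. For Slc7a2 the alleles had 2.91 and 2.67, and the strains 2.97 and 0.42. Arg1 reached allele means of 11086 TPM (C57) and 7540 TPM (NOD) with IL-4 in the F1, on the scale of that table, with responses of 4.77 and 5.62. Rbp4, listed at 0 for both alleles in 1 basal library, was at 497 and 707 TPM for the C57 and at 761 and 891 TPM for the NOD allele with IL-4, and no response is given for it. In level after IL-4, 26 of the 33 genes differed between the strains past 2-fold, and for 23 of these 26 the F1 alleles were within 2-fold of each other, as they were for 88.6% of all genes read. The other 3 were Dhrs9, Bex1 and Bcl2a1b, with log2 ratios of the NOD over the C57 allele of -1.5, -1.43 and 1.02, beside strain differences of -3.34, -1.08 and -1.11. These 3 and Plekhf1, Rras2 and Serpina3g were named after their values were seen. Slc7a2, at means of 1022 TPM for the C57 and 2274 TPM for the NOD allele with IL-4, differed between alleles (log2 ratio 1.15) but not past 2-fold between strains after IL-4 (0.06).

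Of the 70 genes repressed in C57, 9 could be read in all 4 libraries, and 7 more only at basal. The median difference of the 9 between the strains was 1.44. In the F1 the median response was -1.74 for C57 alleles and -1.10 for NOD alleles, with a median difference of 0.80. Both alleles fell past 2-fold for 6 of the 9, against 4.17% of all genes read. Slc40a1 fell by both alleles, with responses of -3.42 and -2.62, where the strains had -2.50 and -0.18. The alleles differed past 2-fold in response for 1 of the 9, Abcb4, with -2.55 for the C57 and -1.34 for the NOD allele, and it too was named after its values were seen. With 2 libraries per group and most genes unread, no allele difference was tested.

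**Figure D5:**
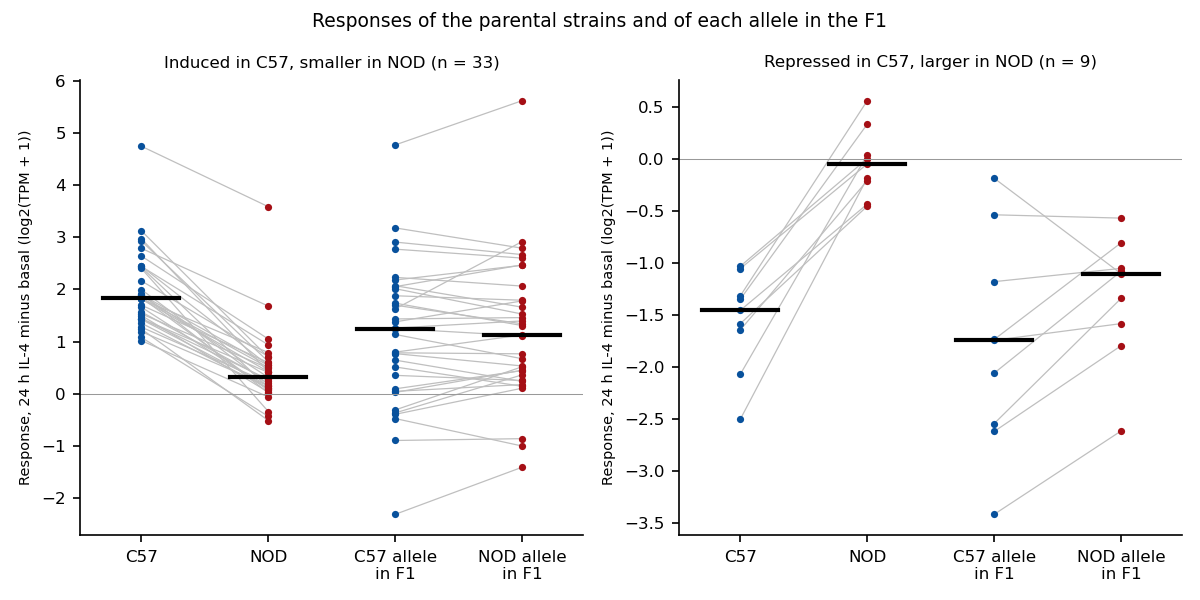
Responses (24 hours of IL-4 minus basal, log2(TPM + 1) scale) in the parental strains and of each allele in the F1 of C57 and NOD, for the 33 genes induced in C57 with a smaller response in NOD (left) and the 9 genes repressed in C57 with a larger response in NOD (right) that had both alleles above 0 in all 4 libraries. Each point is 1 gene, gray lines join C57 to NOD for the same gene, and black bars are medians. The median bars of the strains lie apart in both panels, while those of the alleles lie close together on the left, at 1.25 and 1.13, and less so on the right, at -1.74 and -1.10.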

How the data were processed

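Poly(A) RNA was sequenced from mouse BMDMs, and the tables deposited by the authors give TPM values per gene, made by the authors from reads aligned with STAR to each strain's genome, shifted to mm10 coordinates and counted over exons with HOMER, with 1 entry per gene. No raw counts were used here, so no count model was fitted. The authors' own fold changes and p-values from DESeq2 in the same tables were not used. The human and the C57 by SPRET F1 tables were not used here.

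Of 24537 genes, the 11907 that reached 1 TPM in 2 or more of the 29 libraries of the 5-strain table were kept. The log2(TPM + 1) values entered 1 linear model fitted by limma 3.58.1, run under R 4.3.3 (1 mean per strain and treatment, trended empirical Bayes), and p-values were adjusted by Benjamini-Hochberg over all genes tested. The pseudocount of 1 TPM understates the change of low genes. A gene was called at an adjusted p under 0.05 and a difference past 2-fold. On simulated data, 99% of 200 genes with a log2 change of 1.5 were recovered with 2 false calls among 11907 genes. The changed genes all had a mean above 2 on the log2(TPM + 1) scale. The noise was normal and independent, and the groups otherwise had equal means, without strain differences or shifts in scale. The simulation thus checks the code and does not measure the accuracy of the calls in these data. Other steps used Python 3.11.15, pandas 2.3.3, numpy 2.4.6 and matplotlib 3.10.9. Total tags ranged from 7.02 to 18.3 M in the 12 libraries, so values near 1 TPM rest on few reads.

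The genes named are the 12 most negative and 12 most positive called differences with a group mean of at least 10 TPM, up to 3 called genes per list, up to 4 genes induced and 2 repressed in both strains with a difference under 0.25, genes called in opposite directions, and Arg1, Slc7a2, Msx3, Egr2, Pparg, Stat6 and Il4ra. A gene that this rule picks is not reported here. Other genes named were chosen after their values were seen. The lists and the comparison were chosen with earlier results of these data known. Alternatives were other pseudocounts (0.1 and 5 TPM), filters, scalings and priors, a model of the 12 libraries, a replicate block and leaving out each library. The time course, Egr2 and F1 tables were read as means of 2 libraries without a test, and an F1 response was taken only where both alleles were above 0 in all 4 libraries.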

Additional observations from a re-analysis of the deposited data

Results flagged for a closer look

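The responses of NOD and C57 BMDMs to IL-4 differed by limma's test of the difference itself for 170 genes with the smaller and 124 with the larger response in NOD, and each named gene of these sets is given here with its difference on the log2(TPM + 1) scale. Among the smaller ones, the differences below -2.5 were those of Ccl7 (-4.56), Ccl24 (-4.33), Chil3 (-3.73), Pgf (-3.43), Ccl12 (-3.31), Mgl2 (-3.18), Socs1 (-3.12), Tuba8 (-3.01), Pdcd1lg2 (-2.96), Rbp4 (-2.90), Msx3 (-2.89), Ch25h (-2.86), Cd83 (-2.78), Il6 (-2.66) and Slc7a2 (-2.55). Those between -2.5 and -1 were of Cish (-2.49), Mrc1 (-2.30), Ptgs2 (-2.01), Mmp13 (-1.97), Socs2 (-1.93), Egr2 (-1.89), Fcgr2b (-1.78), Myc (-1.77), Slc7a1 (-1.27), Arg1 (-1.16) and Pparg (-1.03). Among the larger ones, the differences above 1.7 were those of Mcemp1 (1.76), St3gal5 (1.88), Ly6a (2.01), Acss2 (2.11), Cx3cr1 (2.14), Ifitm6 (2.29) and Slc40a1 (2.32). Those under 1.7 were of Ifit3b (1.25), Acsl1 (1.26), Ifit2 (1.30), Ifit3 (1.50), Tnfrsf14 (1.50), Malat1 (1.51), Lad1 (1.52), S100a9 (1.56), Cav1 (1.58) and Fpr2 (1.67). Short RNA genes passed the same test with values that rest on few reads, namely Snord47 (-3.47), Mir6927 (-2.78), Snora43 (2.45) and Mir1982 (3.07). All groups held 3 libraries, so no search for single outlying samples was made.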

How the results depend on the processing

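The pseudocount moved the counts most. With 0.1 TPM, 263 genes had the smaller and 358 the larger response in NOD, and with 5 TPM 104 and 45. With 0.1 and 5 TPM, 412 and 160 genes were induced and 350 and 80 repressed in C57, and 225 and 28 were induced and 121 and 29 repressed in NOD. With 5 TPM, 84 genes were induced in C57 with a smaller response in NOD, of which 23 were high at basal in NOD (88 with 0.1 TPM), 23 had NOD below and 27 had C57 above the other 3 strains, and 30 genes were repressed in C57 with a larger response in NOD (143 with 0.1 TPM). Median-ratio scaling gave 66 larger calls, 44 of the last set and 88 genes repressed in NOD, and quantile normalization gave 75 larger calls. The cause of these moves was not tested. Leaving out each of the 12 libraries gave 163 to 177 smaller and 100 to 152 larger calls, 128 to 142 genes induced in C57 with a smaller response in NOD (44 to 51 high, 53 to 63 equal and 29 to 35 low at basal, 37 to 45 with NOD below and 60 to 70 with C57 above the other 3 strains), 64 to 81 repressed in C57 with a larger response in NOD, 261 to 290 and 80 to 100 induced and 157 to 199 and 49 to 58 repressed in C57 and NOD. Small differences turned sign for Dut (0.12 with 5 TPM), Cxcl10 (0.13) and Gm15056 (-0.001) with 0.1 TPM, and Rnf19b (-0.14), Clec7a (-0.10) and Lcn2 (-0.077) with median-ratio scaling. Beside those named in the text, Socs2, Slc7a1, Pparg, Ifit3b, Cx3cr1 and Snora43 were short of 2-fold with 5 TPM, Arg1 was so with 0.1 TPM, and Tnfrsf14, Mir6927 and Mir1982 missed the adjusted p in a model of the 12 libraries. Mir1982 missed the adjusted p without any 1 of 4 libraries. Same-numbered libraries gave no sign of pairing (correlations of their deviations from -0.085 to 0.073 over 6 pairs), but so few pairs cannot exclude it. A replicate block gave 173 smaller and 128 larger calls and changed no call of a named gene. Low levels limit the depth behind many calls, since 26 of the 170 and 19 of the 124 genes had at least 1 of 12 libraries at 0 TPM.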
